A study of Homo sapiens with 2 samples.

Results

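Centriole duplication and spindle pole genes were followed after knockdown of periostin in MRC-5 cells, a human fibroblast line established from fetal lung. The 10 genes, PLK4, STIL, SASS6, CENPJ, CEP152, CEP192, CEP135, ASPM, PCNT and CDK5RAP2, were chosen by name, with earlier results of these data known. Every probe whose RefSeq accession belonged to 1 of them was taken. These were 13 of the 50599 probes on the array, and the 10 genes were among 21743 genes that could be named. CENPJ carries the symbol CPAP in the RefSeq annotation used and is called CENPJ here. Cells received either a control siRNA or an siRNA against periostin for 48 h, each at 10 nM, and the total RNA of 1 culture per condition was hybridized to 1 single-colour Agilent array. With 1 array on each side, the conditions could not be tested against each other and the text carries no p-value. The cells were not sorted by cell cycle phase, so fewer cells in the phases that use a gene and less of its RNA per cell cannot be told apart.

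A centrosome is built around a pair of centrioles, and each centriole normally makes a single daughter in a cell cycle. CEP192 and CEP152 bring the kinase PLK4 to the parent centriole, PLK4 phosphorylates STIL, and STIL with SASS6 forms the cartwheel on which the daughter grows. CEP135 joins the cartwheel to the wall, and CENPJ sets the growth of the wall microtubules. PCNT and CDK5RAP2 hold the matrix around the centrioles that anchors the gamma-tubulin complexes, and ASPM binds the minus ends of microtubules at the poles of the mitotic spindle. Inherited loss of function of most of these genes causes primary microcephaly or a related growth disorder. The RNA of PLK4, STIL and ASPM is known to be low in resting cells and higher in dividing ones.

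ASPM was by far the lowest of the 10 genes, at 16.8-fold less signal after periostin knockdown, and PLK4 was the other gene lower by more than 3-fold, the threshold used in the study. STIL and CENPJ were about 2-fold lower, CEP152 and CEP135 were lower by a smaller step, and PCNT, SASS6 and CEP192 lay close to no difference. CDK5RAP2 was higher on both of its probes, by 1.37-fold and 1.46-fold, with 76.7% and 80.9% of all genes with a ratio lying lower.

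The sequence upstream of ASPM is shown because ASPM had the lowest ratio, and those of CEP152 and CEP192 because both hold the same letter patterns, while CEP152 was lower and CEP192 lay within 2 spot errors of no difference. They are taken from the RefSeq promoter windows of GRCh38.p14, each of which runs from 250 bases before to 50 bases after a start site, and only bases before the start site are printed, 5′ to 3′ on the strand of the gene. Capitals mark 3 patterns. The first is TTTGAA, known as the cell cycle homology region, and the second is GGCGGGAA, a pattern of E2F sites. The third is CCAAT, the core of the CCAAT box. All were searched on either strand, so that a match on the opposite strand appears as its reverse complement. No capitals overlap between patterns.
ASPM, chr1:197146670-197146813, minus strand: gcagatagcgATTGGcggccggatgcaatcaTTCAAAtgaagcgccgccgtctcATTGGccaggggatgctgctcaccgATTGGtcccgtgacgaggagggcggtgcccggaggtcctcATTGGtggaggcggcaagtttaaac
CEP152, chr15:48811234-48811319, minus strand: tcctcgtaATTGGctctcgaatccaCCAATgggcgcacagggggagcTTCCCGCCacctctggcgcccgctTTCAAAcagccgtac
CEP192, chr18:12991158-12991250, plus strand: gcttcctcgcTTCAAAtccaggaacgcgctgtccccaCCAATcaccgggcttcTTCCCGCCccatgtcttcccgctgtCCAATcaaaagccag

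The ASPM stretch ends at the start site and holds 4 CCAAT matches and 1 TTTGAA match, which begins 113 bases before the start site. In CEP152 the TTTGAA match begins 179 bases and the GGCGGGAA match 203 bases before the start site, and in CEP192 these lie 194 and 151 bases before it. The 10 genes had 13 windows, since PLK4 has 3 and PCNT 2. TTTGAA stood in 6 of the 13, those of ASPM, CDK5RAP2, CEP135, CEP152 and CEP192 and 1 of PLK4, against 15.2% of all 35116 windows, and the matches of CDK5RAP2, CEP135 and PLK4 lie after the start site. CCAAT stood in 7 of the 13, in ASPM, CEP152, CEP192, PCNT, PLK4 and STIL, against 34.6% of all windows. GGCGGGAA stood in 2, those of CEP152 and CEP192, against 3.16% of all windows. Of the other patterns searched, TTTGGCGC was found after the start site of SASS6 alone, against 0.652% of all windows, while TTCGAA and GCGCGAAA were found for none of the 10 genes and in 1.45% and 0.515% of all windows. A match describes these letters only and does not show a bound site.

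The scanner software flagged 58.0% of the 58717 spots as well above background for control siRNA and 58.9% for periostin siRNA, and none as saturated. Values below are background-subtracted signals scaled to a common 75th percentile, in arbitrary units, and ratios are of periostin siRNA to control siRNA on the log2 scale. POSTN, the gene targeted by the siRNA, had a signal of 2638 in the control culture and 280 in the knockdown culture. Its ratio was -3.24, and the error of its single spot was 0.20. All 8 fibroblast markers examined were well above background on both arrays, with summed signals of 329235 and 295278 with control and periostin siRNA. Of 5 epithelial markers, 4 were above background on both arrays and all 4 were higher with periostin siRNA, from KRT18 at 0.48 to EPCAM at 1.97 on the log2 scale, while CDH1 was below background on both. Their signals summed to 3285 in the control culture and 4797 in the knockdown culture, and their part in the results was not tested. Of 4 endothelial markers, 3 were above background with control siRNA and 2 with periostin siRNA, with summed signals of 133 and 130.2 and PECAM1 below background on both arrays. Of 5 blood cell markers, 2 and 4 were above background, with summed signals of 1563 and 2497, nearly all from CD68, at 1528 and 2451, and with MS4A1 below background on both.

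Each probe of the 10 genes was a single spot, and the error given with a ratio is the one that the scanner software propagates for that spot. It does not cover the difference between cultures. As a second measure, 667 other probes were printed 10 times and well above background throughout, and their log2 ratios had a pooled SD between spots of 0.12. This SD was 0.24 for the 134 dimmest of them, with mean signals from 13.5 to 136. The probes of PLK4, SASS6, CEP152 and ASPM and the dimmer STIL probe lie in that range. The SD was 0.07 to 0.10 for those between 136 and 1034. The probes of the 10 genes in this range had nearly constant propagated errors of 0.20 to 0.21, larger than that SD. Where a ratio or a difference is set against its error below, the propagated error is meant. Neither measure covers the difference between cultures. For the 3987 genes on which at least 2 probes passed the background flag on each array, the ratios of the 2 brightest probes differed on the log2 scale by a median of 0.20, and in 90% of genes by at most 0.76.

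**Figure D1:**
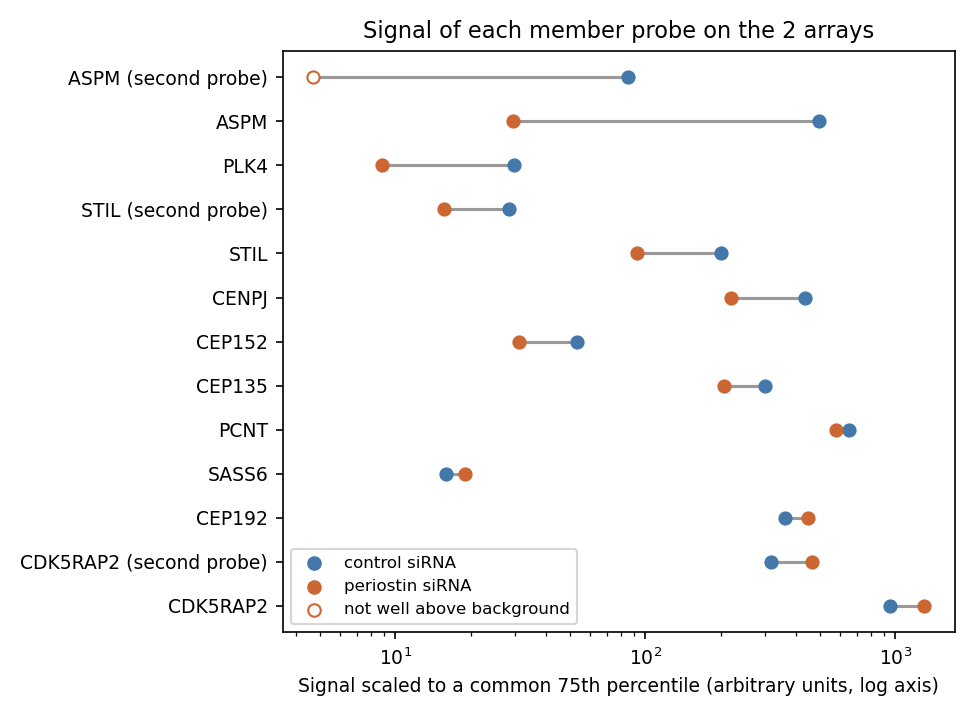
Signal of each of the 13 probes with control siRNA and with periostin siRNA, scaled to a common 75th percentile, on a log axis in arbitrary units. Open circles are not well above background. The ASPM signals lie farthest apart, at 497 and 29.6, and those of PCNT and SASS6 nearly coincide.

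PLK4, the kinase that starts duplication, had a signal of 29.9 with control siRNA and 8.86 with periostin siRNA. Both were flagged as well above background, but the lower one lay close to the dimmest signal so flagged on that array, which was 7.89 before scaling. The log2 ratio was -1.75 with a propagated error of 0.35, a 3.37-fold lower signal, and 358 of the 16064 genes with a ratio lay lower. PLK4 was measured by 1 probe. Under normexp, a model-based background correction run here with an offset of 50, the log2 ratio was -0.47 and the 3-fold call was lost.

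STIL, the substrate of PLK4 that recruits SASS6, was measured by 2 probes assigned to different transcripts. The brighter probe read 201 with control siRNA and 92.4 after knockdown, and its log2 ratio was -1.12 with an error of 0.21. The other probe had signals of 28.6 and 15.7, a ratio of -0.86 with an error of 0.28. Both probes were lower with periostin siRNA, and they differed from each other by 0.26, less than their combined error of 0.35. Under the normexp correction the brighter probe gave -0.75.

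SASS6, which forms the hub of the cartwheel, had a dim signal of 16.0 with control siRNA and 18.9 with periostin siRNA. Its log2 ratio of 0.24 was smaller than its error of 0.29. The values of the cartwheel genes therefore did not move together, with STIL lower on both probes and SASS6 not distinguishable from no difference by the error of its spot.

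Among the genes that bring PLK4 to the centriole, CEP152 had a signal of 53.5 with control siRNA and 31.3 with periostin siRNA. This is a log2 ratio of -0.77 with an error of 0.23, and the normexp correction reduced it to -0.31. CEP192, which also recruits matrix proteins before mitosis, had signals of 360.5 and 449, a ratio of 0.32 with an error of 0.20. The ratios of these 2 recruiters lay on opposite sides of 0 under all 11 settings, the main one and 10 alternatives. All settings use the same 2 arrays, and the CEP192 ratio lay only 1.55 errors from 0. Several settings, such as averaging the probes of a gene, could not change these ratios, since each gene has 1 probe.

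CENPJ, which controls the length of the centriole wall, had a signal of 437 with control siRNA and 221 with periostin siRNA. The log2 ratio was -0.99 with an error of 0.20, a 1.98-fold lower signal. CEP135, which links cartwheel and wall, had signals of 302 and 206 and a ratio of -0.55 with an error of 0.20. Both genes were measured by 1 probe each with signals far above background, and under the 10 alternatives CENPJ ranged from -1.11 to -0.85 and CEP135 from -0.68 to -0.47.

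ASPM had a signal of 497 with control siRNA and 29.6 with periostin siRNA on its brighter probe. The log2 ratio was -4.07 with an error of 0.22. Only 27 of the 16064 genes with a ratio lay lower. The other ASPM probe had a signal of 85.5 with control siRNA and was not well above background with periostin siRNA, where it read 4.70. Set against the lowest signal well above background on that array, it was at least 11.0-fold lower. Both probes thus gave a signal more than 10-fold lower with periostin siRNA. The normexp correction gave a ratio of -2.72, which kept ASPM past 3-fold, as did the other alternatives run.

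PCNT, the large scaffold of the pericentriolar matrix, had a signal of 650 with control siRNA and 577 with periostin siRNA, and its log2 ratio of -0.17 was smaller than its error of 0.20. CDK5RAP2, which binds the gamma-tubulin complex and works with PCNT, had signals of 954 and 1305 on its brighter probe, a ratio of 0.45 with an error of 0.20. Its other probe had signals of 317 and 463, a ratio of 0.55 with an error of 0.20. The 2 CDK5RAP2 probes differed by 0.09, less than their combined error of 0.29, and the gene was above 0 under all 11 settings. Some of these settings returned its main value by construction. The matrix genes therefore gave no lower signal of the kind seen for ASPM.

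**Figure D2:**
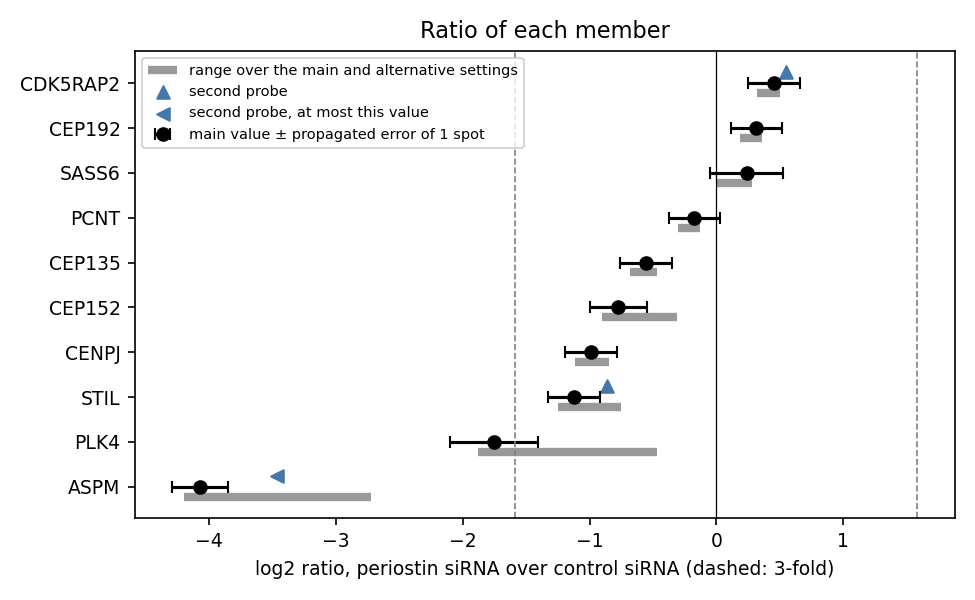
Log2 ratio (periostin over control siRNA) for each of the 10 genes, with the propagated error of its spot (black), the range over the main and 10 alternative settings (grey) and the other probe where there is one (blue, with a left-pointing mark where it is an upper limit). ASPM at -4.07 stands apart, and the grey bar of PLK4 reaches -0.47.

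In order from the lowest ratio, the genes were ASPM, PLK4, STIL, CENPJ, CEP152, CEP135, PCNT, SASS6, CEP192 and CDK5RAP2. Of the 9 neighbouring pairs in this order, 1 differed by more than 2 combined errors, namely ASPM and PLK4, which were 2.32 apart with a combined error of 0.41. The order of the other neighbours was within that limit, from 0.08 between SASS6 and CEP192 to 0.63 between PLK4 and STIL. The ratio was more than 2 errors from 0 for 7 genes, which were ASPM, PLK4, STIL, CENPJ, CEP152, CEP135 and CDK5RAP2. For all genes with a ratio, the share past this limit was not computed. The count of 7 therefore does not set these genes apart from the rest of the array. None of the 13 probes carried an outlier flag or was saturated.

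Of the 10 genes, 7 had a log2 ratio below 0, against 45.5% of the 16064 genes with a ratio. A signal lower by more than 2-fold was found for 3 genes, against 6.42% of all genes, and a signal lower by more than 3-fold for 2 genes, against 2.75%. None was higher by more than 3-fold, against 3.37% of all genes. The median log2 ratio of the 10 genes was -0.66, and that of all genes with a ratio was 0.06. Because the 10 genes were chosen with earlier results known, these comparisons are description only. Under the normexp correction 192 of all genes were lower and 143 higher by more than 3-fold, against 441 and 541 in the main setting. The median of the 10 genes was then -0.39, and ASPM alone remained past 3-fold.

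**Figure D3:**
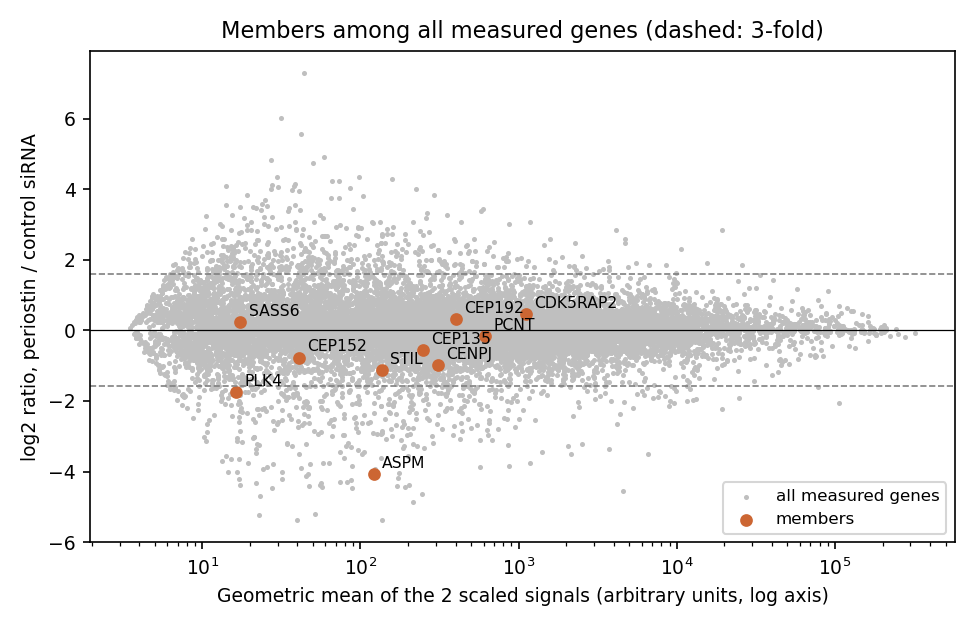
Log2 ratio (periostin over control siRNA) against the geometric mean of both scaled signals (log axis, arbitrary units) for 16064 genes with a ratio (grey) and the 10 genes (orange). ASPM lies near the lower edge of the genes of like signal, PLK4 among dim genes just past the 3-fold line, and the others inside it.

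Other genes of the centriole and spindle pole were taken from lists. The lists here and below were also chosen with earlier results of these data known. Their counts and medians, and comparisons between lists, are therefore description only. Of 22 further genes of centriole assembly 21 gave a ratio, with a median of -0.12. None of them was past 3-fold in either direction, where the share of all genes is 2.75% lower and 3.37% higher. Of the 21 genes 16 were below 0, against 45.5% of all genes. That count ran from 14 without scaling to 19 under scaling on the median, where the list's median was -0.25. The share of all genes below 0 was not computed for those settings, so 45.5% is not their reference. The median of all genes was 0.10 without scaling and -0.07 under scaling on the median. The lowest was POC1A, a protein of the centriole wall, at -1.03, with signals of 584 and 287 for control and periostin siRNA, and the highest was RTTN, which is needed for centrioles to lengthen, at 0.65, with 118 and 185. SPICE1 was below background on both arrays.

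Of 9 regulators of centriole number, all gave a ratio, 4 were below 0 and none was past 3-fold. The shares of all genes are 45.5% below 0, and 2.75% lower and 3.37% higher by more than 3-fold. The median of the regulators was 0.14, or 0.0074 under scaling on the median. CCNF, the F-box protein that targets the centriole cap CCP110 for degradation, had a signal of 18.5 with control siRNA and was not well above background with periostin siRNA, at least 2.38-fold lower. BTRC, an F-box protein that limits PLK4, was the highest at 0.66, with signals of 507 and 798. Of 10 genes of the mother centriole appendages 9 gave a ratio, with 7 below 0 and none past 3-fold on the probe that stands for it. The shares of all genes to set beside these counts are the same. The median of the appendage genes was -0.21. That median was -0.34 under scaling on the median and -0.56 when the probes of each gene were averaged. CEP128 was the lowest at -0.85 and CNTRL the highest at 0.50, but the other CEP128 probe was at least 3.89-fold lower, and the other CNTRL probes gave 0.06 and -0.08.

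Of 15 genes of the pericentriolar matrix, centriole linker and gamma-tubulin complexes, 14 gave a ratio. Of these 6 were below 0, against 45.5% of all genes. None was past 3-fold, where the share of all genes is 2.75% lower and 3.37% higher. The median was 0.08, and its sign turned under scaling on the median, to -0.05, and, with a gene's probes averaged, to -0.07. The lowest was MZT1, a small subunit of the gamma-tubulin complex, with signals of 1104 and 409.5 and a ratio of -1.43, and the highest was TUBGCP6, a large subunit of the same complex, at 0.80, with 351 and 609.

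The spindle pole list held more low values. Of 22 further spindle pole genes 20 gave a ratio and 13 were below 0, against 45.5% of all genes. A signal lower by more than 3-fold was found for 7, against the 2.75% of all genes given above. The median of the list was -0.59. With the probes well above background on both arrays alone, the list had 18 genes with a ratio, of which 5 were past 3-fold, and a median of -0.32. Under this restriction 358 of all 14962 genes were lower by more than 3-fold. HMMR, a spindle assembly factor, had signals of 790 and 37.0, a ratio of -4.42 with an error of 0.21, close to that of ASPM. KIFC1, a kinesin that draws poles together, went from 143 to a signal not well above background, at least 18.4-fold lower, although its log2 ratio was -1.64 in the weakest alternative. NEK2, the kinase that parts the centrosomes, went from 56.7 to a signal not well above background, at least 7.30-fold lower. TACC3, which stabilizes spindle microtubules, had a ratio of -2.77, SPAG5, also called astrin, -2.22, and WDR62, a scaffold at the poles, -2.25. TPX2, the activator of Aurora A, gave -1.64, 3.12-fold lower, and under the normexp correction neither TPX2, at -1.49, nor NEK2, at -0.84, was past 3-fold. KIZ, which stabilizes the matrix, was the highest of the list at 0.62.

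**Figure D4:**
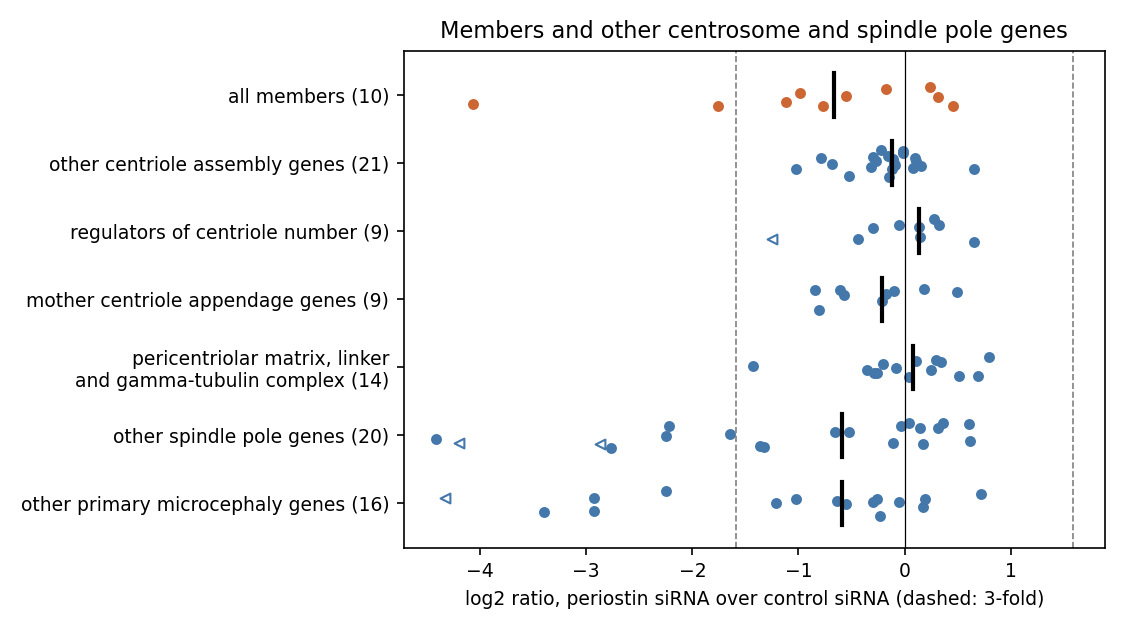
Log2 ratio (periostin over control siRNA) for the 10 genes (orange) and the genes of 6 further lists (blue), with the number of genes with a ratio in brackets and the median as a black bar. Open marks are upper limits. Values past the dashed 3-fold line occur among the 10 genes and in the spindle pole and microcephaly lists, with medians of -0.66, -0.59 and -0.59, the second of which is -0.32 without probes below background.

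Among 17 other genes of primary microcephaly, 16 gave a ratio, 13 were below 0, against 45.5% of all genes, and 5 were lower by more than 3-fold, against 2.75%, with a median of -0.59. KIF14, a kinesin of cytokinesis, went from 157 to a signal not well above background, at least 20.2-fold lower, with a log2 ratio of -1.71 in the weakest alternative. LMNB1, a subunit of the nuclear lamina, had a ratio of -3.40, with signals of 315 and 30.0. KNL1, a kinetochore scaffold, gave -2.93 ± 0.20, and CENPE, a kinetochore kinesin, -2.93 ± 0.14 (SD over 10 spots). Under the normexp correction KNL1 gave -1.48 and was no longer past 3-fold. WDR62, which is also on the spindle pole list, was the remaining one, so that the same gene is counted in both lists. MCPH1 was the highest at 0.72, but its other probe gave -0.62. NCAPH was below background on both arrays.

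Of the polo-like kinases related to PLK4, PLK1 was not among the probes named through RefSeq. PLK2 had a ratio of -0.03 and PLK3, with signals of 3753 and 3104, of -0.27. PLK5 had signals of 17.7 and 52.7 and a ratio of 1.57, 2.98-fold higher, just inside the 3-fold limit. Its ratio ranged from 0.58 to 1.62 over the settings, and it was past 3-fold in 1 of them. Of these kinases with a ratio, PLK4 alone was lower by more than 3-fold in the main setting.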

How the data were processed

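Scanner files deposited for both arrays name, in their headers, Agilent Feature Extraction 11.5.1.1, whereas the submitters' processing notes name version 12.0.3.1. The deposited intensity values are processed signals, from which that program had subtracted the background, with no scaling from one array to the other, and the probe annotation is on hg19. A second table that the authors deposited holds normalized intensity values, which equal the scanner intensities times 3.65 for control siRNA and 3.54 for periostin siRNA for 100% of the probes printed a single time (within 0.01 on the log2 scale). The sources used here do not say how it was normalized. Its ratios were those of the main setting but for a shift of -0.00043 in the log2 median of all genes. As an alternative setting it thus repeats the main scaling.

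Control spots were left out, and each array was divided by its 75th percentile, 372 and 383, and multiplied by 377. Repeated spots entered as the mean of their log2 values, with each gene represented by its brightest probe. A probe above background on 1 array alone gives a bound against the higher of its own signal and the lowest flagged signal, 7.43 and 7.89 unscaled. Symbols and promoters come from RefSeq (GRCh38.p14), which named 65.1% of the spots. The named genes are the 10 members, and, of each list, the genes past 3-fold and the highest and lowest. Members and lists were chosen with earlier results of these data known. The ratios were checked on data made with known changes. These were placed in bright genes alone, so the check does not cover dim genes or bounds. The normexp alternative started from the median pixel signals of spot and background. The alternatives used R 4.3.3 with limma 3.58.1, and the rest Python 3.11.15, numpy 2.4.6 and pandas 2.3.3. Precision is limited by the number of arrays, the spot error and the signal over background.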

Additional observations from a re-analysis of the deposited data

How the results depend on the processing

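No paired analysis was possible because there was 1 array a condition. Leaving out a replicate or blocking on the slide could not be run for this reason. Among the 10 alternatives to the main setting, the normexp background correction moved POSTN, the median of the 10 genes, ASPM, PLK4, STIL, CEP152, CENPJ and SASS6 most, and scaling on the median moved CEP192, CDK5RAP2, PCNT and CEP135 most. Normexp gave -2.99 for POSTN, -0.39 for the median of the 10 genes and 1 gene lower by more than 3-fold, and its offset of 50 pulls dim ratios towards 0 by construction. Its ratio of -0.47 for PLK4, -2.72 for ASPM, -0.31 for CEP152 and -0.75 for STIL lay more than the spot error from the main value, as did -3.77 for ASPM as the mean of its probes. Scaling on the median shifted all genes by -0.13 and gave a median of -0.79 for the 10 genes. At a 4-fold threshold 1 of the 10 genes was lower, and the share of all genes past it was not computed. At 2-fold 3 were lower, against 6.42% of all genes. For all genes, the counts past 3-fold were 441 lower and 541 higher in the main setting, 192 and 143 after normexp, and 525 and 453 under scaling on the median. All 10 genes kept the side of 0 of their ratio under the 10 alternatives, which use the same arrays, although SASS6 came down to 0.0074. Several alternatives could not have moved them. Leaving out flagged spots or probes not above background returned the main value of all 10 genes. Averaging probes did so for the 7 genes with 1 probe, and the authors' table repeats the main scaling. The probes of PLK4 and SASS6 are limited by their nearness to background.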
